A study of Homo sapiens with 6 samples.

Results

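The microRNAs miR-33a and miR-33b are a pair of closely related miRNAs that lie inside the genes of the sterol regulatory element-binding proteins. Both arms of both precursors were examined, which are hsa-miR-33a-5p, hsa-miR-33a-3p, hsa-miR-33b-5p and hsa-miR-33b-3p, 4 of the 2588 mature human miRNAs in the deposited expression table. The 4 were chosen by name, as the products of these host genes, and no level or fold change enters that rule. They were proposed with earlier results of the same 6 samples known, so that their differences describe these libraries and are not independent evidence of an effect.

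SREBF2 encodes SREBP2, the transcription factor that switches on cholesterol synthesis when sterols are scarce, and SREBF1 encodes SREBP1, which drives fatty acid and triglyceride synthesis. Each miR-33 is cut from an intron of its host transcript, and its 5p strand, known as the guide strand, is known to repress ABCA1, the transporter that exports cholesterol to HDL, and genes of fatty acid oxidation such as CPT1A and CROT. In the liver, miR-33 is therefore known as the miRNA that acts together with its host genes to raise intracellular cholesterol and lipid.

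Cells were of the human hepatoma line Huh7 and were transfected with a lipid reagent, either with a plasmid that expresses the circular RNA hsa_circ_0098181 (overexpression group, n = 3) or with its control plasmid (control group, n = 3). Total RNA was taken 48 h later and the small RNAs were sequenced. No untransfected cells were analysed here, so that both groups share the transfection, and the level of the circular RNA itself is not read by this assay. The labels do not say that replicates came from separate cultures, and the spread between samples may therefore be technical. The comparison addressed how miRNA levels differ when hsa_circ_0098181 is supplied.

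The sequences show how close the 2 loci are and where they part. RefSeq (GRCh38.p14) listed all 4 mature products, printed here 5′ to 3′ with the seed, bases 2 to 8, in capitals because the seed decides which targets a miRNA recognises.
hsa-miR-33a-5p: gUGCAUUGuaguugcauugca
hsa-miR-33b-5p: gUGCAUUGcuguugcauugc
hsa-miR-33a-3p: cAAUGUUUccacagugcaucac
hsa-miR-33b-3p: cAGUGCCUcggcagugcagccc

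The 5p arms have the same seed, UGCAUUG, and no other of the 2370 mature miRNAs in the RefSeq table carries it. Over the first 20 bases, counted from the 5′ end, they were identical at 18, with the substitutions U9C and A10U from miR-33a-5p to miR-33b-5p, and miR-33a-5p is 1 base longer. A read of either 5p arm can thus be told from the other only by these substitutions. The extra base does not serve, since in the MIR33B hairpin, printed below, the base after the 5p arm is also an A. The 3p arms share 15 of 22 bases, and their seeds differ (AAUGUUU and AGUGCCU). The seed of hsa-miR-33b-3p is also that of hsa-miR-515-3p and hsa-miR-519e-3p, which had 0 counts each over all 6 samples.

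The precursors are printed with the mature arms in capitals, to show that each arm sits on its own side of a short loop.
MIR33A: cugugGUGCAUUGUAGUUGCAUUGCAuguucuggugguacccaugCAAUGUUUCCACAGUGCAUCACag
MIR33B: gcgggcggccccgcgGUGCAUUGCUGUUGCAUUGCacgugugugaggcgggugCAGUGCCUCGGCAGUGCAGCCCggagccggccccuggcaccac

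MIR33A lies at chr22:41900944-41901012 on the plus strand and MIR33B at chr17:17813836-17813931 on the minus strand, and GENCODE release 29 (GRCh38) places both genes at the same positions. MIR33A is intronic in all 3 coding transcripts of SREBF2 that span it, and MIR33B is intronic in all 5 coding transcripts of SREBF1 that span it. In a coding transcript of each host that has 19 exons, the miRNA lies in intron 16. The precursors differ in base composition, with a GC content of 47.8% for the 69 bases of MIR33A and 72.9% for the 96 bases of MIR33B. Between the arms lie 19 bases in MIR33A and 18 in MIR33B.

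The libraries held 7144798 to 10786295 counts. Levels are given as TPM, which in this table is the count per 1000000 counts of the same library with no correction for length, the 4 products being 20 to 22 bases long. Where groups were tested, the counts were scaled by TMM factors, which were between 0.921 and 1.09. They were 0.921 to 0.996 in the overexpression group and 1.00 to 1.09 in the control group. Unscaled TPM therefore puts the overexpression samples lower, relative to the controls, than the scaled values do. Control replicate 3 stood apart from the other controls, and results are therefore also given without it. It also had the fewest counts and the highest TMM factor of the 6 libraries. Over 152 abundant miRNAs its median absolute log2 difference was 0.21 from control replicates 1 and 2 each, against 0.049 between those 2 libraries. From the overexpression libraries, however, it differed by 0.12 to 0.19, much as control replicates 1 and 2 did (0.13 to 0.19). The overexpression libraries differed from each other by 0.079 to 0.105, so that control replicates 1 and 2 were also unusually alike. The hepatocyte miRNAs miR-122-5p, miR-192-5p, miR-194-5p and miR-148a-3p summed to between 403377 and 435127 TPM, and all 4 were present in every group. Of 13 markers of blood, erythroid, muscle, neural, endothelial and stromal cells, 0 were at 0 over all 6 samples together, while miR-133a-3p, with 3 counts in all, was at 0 in 4 libraries, and their sum was 3406 to 3500 TPM in the overexpression group and 3321 to 3408 TPM in the control group, most of it from the endothelial miR-126-3p. The blood cell marker miR-142-3p, of a level like that of miR-33, was lower in all overexpression samples than in all controls after TMM scaling, with 9.23 ± 0.743 TPM against 14.1 ± 2.44 TPM (SD, n = 3 each) and a log2 fold change of -0.50 (adjusted p = 0.314 from edgeR). The other blood markers had the opposite sign at lower levels, with means of 0.445 TPM in the overexpression and 0.216 TPM in the control group for miR-142-5p, and log2 fold changes of 0.46 for miR-150-5p and 0.45 for miR-223-3p (adjusted p = 0.698 and 0.715 from edgeR). The part of these markers in the results was not tested.

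All 4 products were detected in every library, at low levels. Their mean TPM over the 6 samples was 16.4 for hsa-miR-33b-5p, 15.4 for hsa-miR-33a-3p, 11.6 for hsa-miR-33b-3p and 9.71 for hsa-miR-33a-5p. By this mean they ranked 265, 271, 298 and 310 among the 1366 miRNAs with any count. The samples of hsa-miR-33b-5p and hsa-miR-33a-3p overlapped in both groups, and so did those of hsa-miR-33b-3p and hsa-miR-33a-5p. Between hsa-miR-33a-3p and hsa-miR-33b-3p they were apart in the overexpression group, at 12.6 TPM or more against 10.9 TPM or less, and overlapped in the control group. Together the 4 products took 1 in 14178 to 1 in 24477 of all counts, and the liver miRNA miR-122-5p was 8439 to 16215 times as abundant as the sum of the miR-33 5p arms.

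The 3 libraries with hsa_circ_0098181 held 67, 45 and 62 reads of hsa-miR-33a-5p, the 5p arm of the SREBF2 locus, and the 3 libraries with the control plasmid held 145, 137 and 56, in the order of replicates 1 to 3, as for all values per library. In TPM this was 8.40, 5.31 and 7.48 with hsa_circ_0098181 and 13.4, 15.8 and 7.84 with the control plasmid. Control replicates 1 and 2 lay above all overexpression samples, while control replicate 3 lay among them, so that the groups overlapped. On average this was 12.4 ± 4.09 TPM with the control plasmid against 7.06 ± 1.58 TPM with hsa_circ_0098181 (SD, n = 3 each). For its lowest library, with 45 counts, the exact binomial 95% confidence interval was 3.88 to 7.11 TPM, and for its highest it was 13.3 to 18.7 TPM. These intervals cover the sampling of reads only. No molecular identifiers are named, so that copies of one molecule may have been counted more than once.

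The opposite arm of the same hairpin, hsa-miR-33a-3p, had 124, 107 and 113 reads in the overexpression libraries, while the control libraries had 202, 167 and 92. Its level was 15.5, 12.6 and 13.6 TPM with hsa_circ_0098181 and 18.7, 19.2 and 12.9 TPM with the control plasmid. As for the 5p arm, control replicates 1 and 2 were the highest and control replicate 3 was within the overexpression samples in TPM. After TMM scaling control replicate 3 was instead below them, at 11.8 per 1000000 against 13.7 to 15.6. The means were 16.9 ± 3.54 TPM for the controls and 13.9 ± 1.48 TPM for overexpression (SD, n = 3 each).

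The 5p arm of the SREBF1 locus, hsa-miR-33b-5p, had 115, 132 and 131 reads in the overexpression libraries, while the control libraries had 187, 180 and 104. Its level was 14.4, 15.6 and 15.8 TPM with hsa_circ_0098181 and 17.3, 20.7 and 14.6 TPM with the control plasmid. The overexpression samples lay close together and control replicate 3 fell between them in TPM. After TMM scaling control replicate 3 was instead below them, at 13.4 per 1000000 against 14.5 to 16.9. The means were 17.5 ± 3.10 TPM for the controls and 15.3 ± 0.748 TPM for overexpression (SD, n = 3 each), a difference within 1 SD of the controls.

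For hsa-miR-33b-3p, the overexpression libraries had 87, 62 and 70 reads and the control libraries 135, 128 and 110. Its level was 10.9, 7.32 and 8.44 TPM with hsa_circ_0098181 and 12.5, 14.8 and 15.4 TPM with the control plasmid. It was the single product of the 4 whose groups did not overlap, every overexpression sample lying below every control sample. The means were 14.2 ± 1.51 TPM for the controls and 8.89 ± 1.83 TPM for overexpression (SD, n = 3 each). Among all 552 miRNAs tested, 6.52% had every overexpression sample below every control sample after TMM scaling, against 1 of the 4 miR-33 products.

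**Figure D1:**
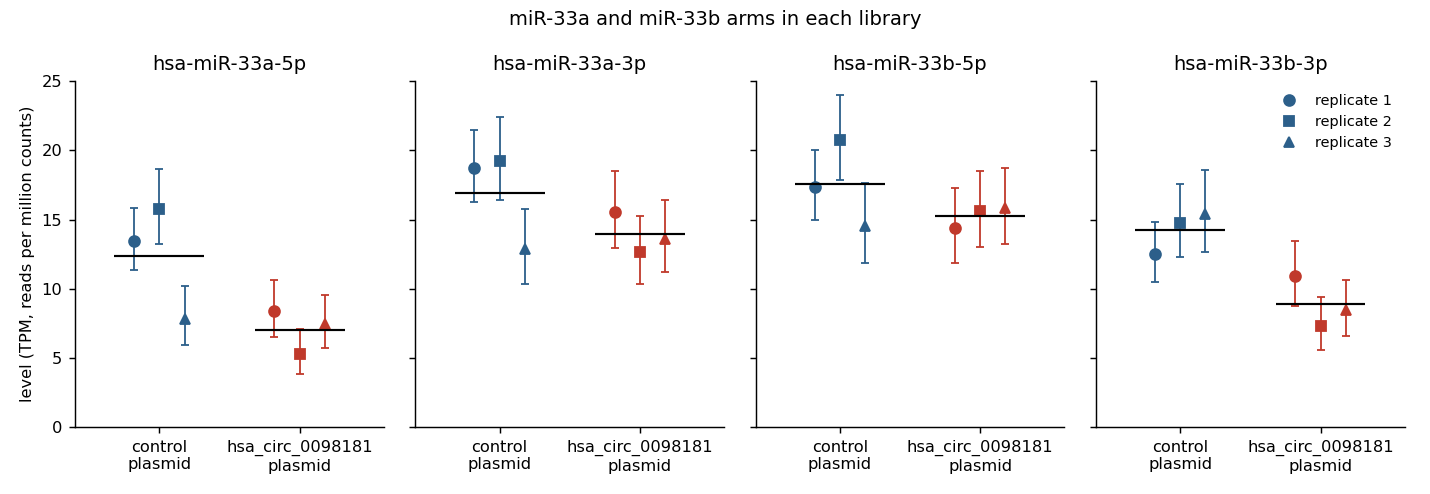
Level of each miR-33 product in TPM (vertical axis) in the 3 control and 3 overexpression libraries; points are libraries with exact binomial 95% intervals and black lines are group means. hsa-miR-33b-3p separates the groups, with 7.32 to 10.9 TPM against 12.5 to 15.4 TPM. For the other products control replicate 3 lies among the overexpression samples in TPM, which is not scaled by TMM factors.

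The counts were tested with edgeR (quasi-likelihood, TMM scaling) across all 552 miRNAs that passed the filter on low counts, which all 4 products passed, the lowest count of any being 45. hsa-miR-33a-5p had a log2 fold change of -0.72 (95% confidence interval from -1.26 to -0.19, standard error 0.25, adjusted p = 0.314 from edgeR), a relative level of 0.606 in the overexpression group. hsa-miR-33b-3p had -0.56 (standard error 0.17, interval -0.92 to -0.20, adjusted p = 0.306 from edgeR), a relative level of 0.678. The other arms differed less, with -0.19 for hsa-miR-33a-3p (interval -0.57 to 0.19, adjusted p = 0.703 from edgeR) and -0.094 for hsa-miR-33b-5p (interval -0.44 to 0.26, adjusted p = 0.82 from edgeR). Unlike the adjusted p, the intervals take no account of the number of miRNAs tested.

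After adjustment, edgeR's test called 0 of the 4 products at the 0.05 threshold, as it did for the whole table, with 0 of 552 called (0%). DESeq2 also called 0 of the 552. At an unadjusted p under 0.05, edgeR found 50 miRNAs, and hsa-miR-33a-5p and hsa-miR-33b-3p were 2 of the 26 that were lower with hsa_circ_0098181 (4.71% of those tested). Of the tested miRNAs, 1.09% had a lower log2 fold change than hsa-miR-33a-5p and 2.17% a lower one than hsa-miR-33b-3p. The interval for hsa-miR-33a-5p reaches from 0.418 to 0.879 of the control level.

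hsa-miR-33a-5p passed the threshold in 2 of the 12 alternative fits, and in the other 10 it did not. With all 6 samples and no filter on low counts its log2 fold change was -0.74 (adjusted p = 0.0277 from edgeR). Without control replicate 3 its log2 fold change was -0.98 (standard error 0.18, interval -1.34 to -0.62, adjusted p = 6.67e-05 from edgeR), a relative level of 0.506. hsa-miR-33b-3p hardly moved, with -0.55 (standard error 0.17, adjusted p = 0.0292 from edgeR), and passed the threshold in the same fit. hsa-miR-33a-3p had -0.38 (adjusted p = 0.0797 from edgeR) and hsa-miR-33b-5p had -0.25 (adjusted p = 0.349 from edgeR). In that fit 38 of 565 miRNAs were called lower in the overexpression group (6.73%), which included 2 of the 4 miR-33 products. Each library was left out in turn, and this fit is given because the library stood apart from the other controls in miRNAs more abundant than miR-33. The 2 controls that remain were more alike than any other pair of libraries, and the p-values of this fit rest on them as the control group. Whether control replicate 3 or the other 2 controls better represent the control plasmid was not tested.

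**Figure D2:**
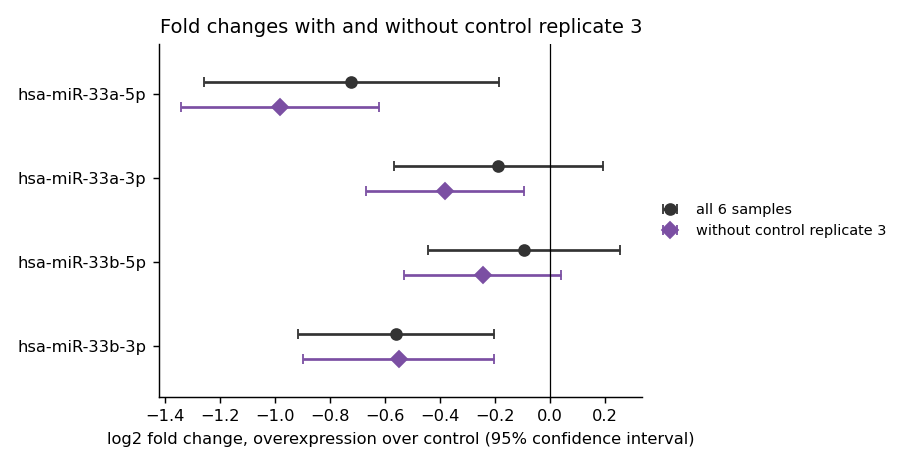
Log2 fold change of overexpression over control (horizontal axis) with its 95% confidence interval for each miR-33 product, with all 6 samples (black circles) and without control replicate 3 (purple diamonds). The estimate of hsa-miR-33a-5p went from -0.72 to -0.98 and its interval narrowed, while that of hsa-miR-33b-3p stayed near -0.56.

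The spread between replicates also set hsa-miR-33a-5p apart. Its pooled SD of log2 TMM CPM was 0.45, higher than that of all 110 other miRNAs whose mean level was within 1 log2 unit of the average of the 4 products, which had a median of 0.20. Most of it came from the control group, with an SD of 0.58 against 0.28 in the overexpression group. hsa-miR-33b-3p, with a pooled SD of 0.18, varied less than the median of these miRNAs, and hsa-miR-33a-3p (0.28) and hsa-miR-33b-5p (0.23) lay between.

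The arms of one hairpin come from the same precursor, so that their ratio within a library does not depend on its size. Most precursors are known to keep mainly one arm. Of the 169 precursors in the table with at least 30 counts on each arm, the median difference between the arms was 11.2-fold, and 28 (16.6%) were within 2-fold. Both miR-33 precursors were among these 28, in opposite directions. The 3p arm was the higher one for miR-33a, although its 5p strand is the one known as the guide, with a mean log2 ratio of 5p to 3p of -0.74 over the 6 samples, and the 5p arm for miR-33b, with 0.54. Of the 169, 23 precursors were more balanced than miR-33a and 19 more balanced than miR-33b.

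In the miR-33a hairpin, the log2 ratio of 5p to 3p was -0.88, -1.24 and -0.86 with hsa_circ_0098181, compared with -0.48, -0.28 and -0.71 under the control plasmid. Every overexpression sample lay below every control sample, control replicate 3 included, while 8.88% of the 169 precursors did the same. The means were -0.99 ± 0.21 and -0.49 ± 0.21 (SD, n = 3 each), which differed by -0.50 (exact permutation test, two-sided, p = 0.1, the smallest that 3 samples against 3 can give). Expressed as a ratio, the overexpression samples had 0.705 times as many 5p reads per 3p read as the control samples. Of the 169 precursors, 25 had a larger absolute difference between the groups.

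In the miR-33b hairpin the difference had the other sign. It was 0.40, 1.08 and 0.90 with hsa_circ_0098181, compared with 0.47, 0.49 and -0.081 under the control plasmid, and the groups overlapped. The difference of the means, 0.79 ± 0.35 against 0.29 ± 0.32 (SD, n = 3 each), was 0.50 (exact permutation test, two-sided, p = 0.3), and 0.32 without control replicate 3. A larger absolute difference than that of miR-33b was seen for 26 of the 169 precursors. The contrast between the 2 hairpins was not tested.

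The 5p arms share their seed, and they were therefore also summed. The sum was 22.8, 20.9 and 23.3 TPM with hsa_circ_0098181, compared with 30.8, 36.5 and 22.4 TPM under the control plasmid, so that the groups overlapped through control replicate 3. The mean was 22.3 ± 1.26 TPM with hsa_circ_0098181 and 29.9 ± 7.11 TPM with the control plasmid (SD, n = 3 each), a ratio of 0.747. TMM factors were not applied to these sums. hsa-miR-33b-5p made up most of the 5p sum in every library, from 56.3% to 74.6%. With both arms added, the SREBF1 locus took 48.1% to 59.1% of the miR-33 reads, so that the loci were nearly even.

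The log2 ratio of hsa-miR-33b-5p to hsa-miR-33a-5p was 0.77, 1.54 and 1.07 with hsa_circ_0098181, compared with 0.37, 0.39 and 0.89 under the control plasmid. hsa-miR-33b-5p was thus the higher of the pair in all 6 libraries. The means were 1.13 ± 0.39 and 0.55 ± 0.29 (SD, n = 3 each), which differed by 0.58 (exact permutation test, two-sided, p = 0.2), with overexpression replicate 1 below control replicate 3. Over these 3 ratios the Benjamini-Hochberg adjusted p of the exact tests was 0.3 for each, and none could pass a threshold of 0.05 in this design.

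**Figure D3:**
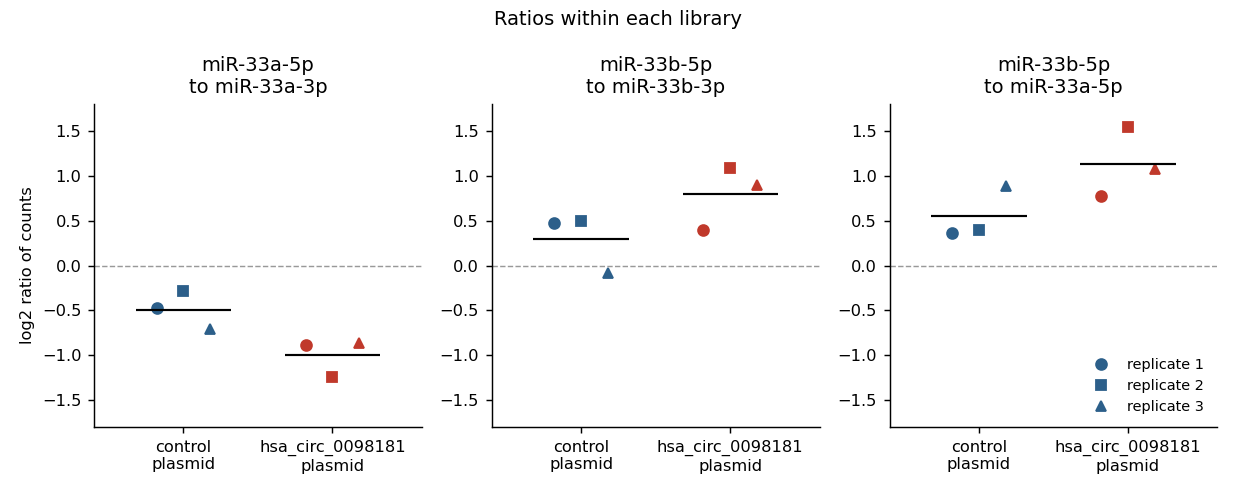
Log2 ratios of counts within each library (vertical axis) for the arms of miR-33a, the arms of miR-33b and the pair of 5p arms, in control (blue) and overexpression (red) samples, with black lines at the group means. For miR-33a the overexpression samples lie at -1.24 to -0.86, below all controls at -0.71 to -0.28.

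Across the 6 samples, the TMM CPM of the 4 products did not move as one. On the log2 scale, Pearson's r was 0.88 between the arms of miR-33a and 0.0014 between the arms of miR-33b, and the 5p arms of the 2 loci had an r of 0.63. These values describe 6 libraries of 2 groups that share their scaling, and the reads of one library are common to all 4 products. The tested miRNAs whose pattern was most like that of hsa-miR-33a-5p were miR-551b-3p, miR-96-5p and miR-18a-5p, with r of 0.98 each over the 6 samples. For hsa-miR-33b-5p they were miR-30e-5p (r of 0.99), miR-29b-2-5p (0.95) and miR-19a-3p (0.94), of which miR-29b-2-5p had a mean of only 1.87 TMM CPM.

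Other miRNAs of cholesterol transport were examined as a list of 17 miRNAs, among them known regulators of ABCA1. Of these, 14 had enough counts to be tested, edgeR called 0 after adjustment (2 at an unadjusted p under 0.05, 1 in each direction), and 7 were lower and 7 higher in the overexpression group. Their median log2 fold change was -0.022, against 0.0038 for all tested miRNAs. miR-106b-5p, which targets ABCA1, had -0.37 (adjusted p = 0.314 from edgeR), and miR-128-3p, which also targets ABCA1, had 0.25 (adjusted p = 0.314 from edgeR). miR-93-5p, of the same cluster as miR-106b-5p, had 0.13 (adjusted p = 0.568 from edgeR). Without control replicate 3, 5 of the 14 were called, 4 of them lower, against 9.91% of all 565 miRNAs in that fit. That share takes in miRNAs of all levels, and the list was not compared with miRNAs of like level. miR-106b-5p (-0.50, adjusted p = 1.90e-05 from edgeR) and miR-19b-3p (-0.36, adjusted p = 2.36e-05 from edgeR) had the smallest adjusted p of the list.

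The list of 12 miRNAs of SREBP feedback and lipid synthesis had 10 tested members, of which 0 were called (3 at an unadjusted p under 0.05, 1 lower and 2 higher), 2 were lower and 8 higher, with a median log2 fold change of 0.073. It holds the miR-183, miR-96 and miR-182 cluster, which SREBP2 is known to switch on and which is made from one transcript. miR-96-5p had -0.24 (adjusted p = 0.435 from edgeR) and miR-182-5p had 0.19 (adjusted p = 0.421 from edgeR). miR-122-5p, the most abundant, had 0.19 (adjusted p = 0.314 from edgeR). Without control replicate 3, miR-96-5p fell (-0.35, adjusted p = 0.000183 from edgeR) and miR-182-5p rose (0.22, adjusted p = 0.0156 from edgeR), and they were the 2 of 10 called, against the same 9.91% of all miRNAs. In both lists the log2 fold changes of the tested miRNAs stayed between -0.37 and 0.45 with all samples. Those of hsa-miR-33a-5p and hsa-miR-33b-3p lay below this range, but the lists were not matched to them for level. Most listed miRNAs were more abundant than the miR-33 products. Standard errors were 0.066 for miR-122-5p and 0.43 for the scarce miR-223-3p, against 0.25 for hsa-miR-33a-5p and 0.17 for hsa-miR-33b-3p.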

How the data were processed

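The miRNA sequencing of 3 overexpression and 3 control samples of Huh7 cells was used, grouped by the sample titles. The authors deposited counts, the reads assigned to each mature miRNA per sample, and TPM values, which equalled counts per 1000000 of the same sample to within 0.00303. The submitters' processing notes name hg38, TopHat2 2.0.9 and Bowtie without a role, and how a read was assigned to a miRNA (annotation, mismatches, reads with several matches) is not given in the sources used here. Reads of the miR-33 5p arms, which differ in few bases, could be shared out differently by another assignment.

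Counts were analysed with edgeR 4.0.16 in R 4.3.3: filterByExpr (minimum count 10, minimum total 15), which kept 552 miRNAs with 99.98% of the counts, TMM factors, and the two-sided quasi-likelihood test between groups. P-values were adjusted after Benjamini and Hochberg across every tested miRNA, and those under 0.05 were called. Standard errors were derived from the log2 fold change and the test statistic. The confidence intervals were built from them and are not adjusted. The total was 7144798 to 10786295 counts per sample. Ratios were computed from counts with 0.5 added and compared by exact permutation tests. Alternatives were DESeq2 1.42.0, library size alone, upper-quartile factors, other filters, a replicate block, an added count of 5 and each sample left out. The code was tested on simulated data. Besides the miR-33 products, the text names the 3 miRNAs most correlated with each 5p arm, up to 3 of each list with the smallest p and its most abundant one, and the markers; miR-19b-3p was added after its value was seen. The most abundant miRNA of the cholesterol list is not reported here as a member of it. The members and lists were chosen with earlier results of these data known. Sequences were taken from RefSeq (GRCh38.p14) and transcripts from GENCODE release 29.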

Additional observations from a re-analysis of the deposited data

How the results depend on the processing

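Of 48 log2 fold changes of the miR-33 products recomputed under the alternatives, 44 stayed on the same side of the test's threshold with the same sign. Every count of calls was 0 in the main fit, and 41 of 48 recomputed counts were 0 again. All 24 differences of ratios kept their sign, and their exact tests could not pass the threshold. Without a filter on low counts, hsa-miR-33a-5p had a log2 fold change of -0.74 (adjusted p = 0.0277 from edgeR), so that 1 of the 4 products was called, among 6 of all 1366 miRNAs. With the library size alone 3 of all miRNAs and none of the 4 products were called, and the fold changes of all tested miRNAs were shifted to a median of -0.11 (log2). That scaling also moved the miRNAs at an unadjusted p under 0.05 from 24 higher and 26 lower to 1 higher and 69 lower. The causes were not tested. When samples were left out in turn, the log2 fold change was between -0.98 and -0.53 for hsa-miR-33a-5p, between -0.71 and -0.47 for hsa-miR-33b-3p and between -0.25 and 0.038 for hsa-miR-33b-5p, which was above 0 without control replicate 2 (adjusted p = 0.97 from edgeR) and below it in the other fits. The number of the 4 products called was 0 to 2, of all tested miRNAs 0 to 56, of the cholesterol list 0 to 5 and of the SREBP list 0 to 2, each highest value without control replicate 3 and the value 0 in the other 5 fits. Outside these fits the adjusted p was between 0.0277 and 0.568 for hsa-miR-33a-5p and between 0.122 and 0.479 for hsa-miR-33b-3p. The difference of the miR-33a arm ratio was between -0.61 and -0.38 with a sample left out. Same-numbered samples deviated from their group means with correlations of -0.025, 0.15 and 0.24 over 152 abundant miRNAs, so that not every pair was above 0.1 and the samples were not treated as paired. With the replicate block, the log2 fold changes were -0.68, -0.16, -0.081 and -0.56 for hsa-miR-33a-5p, hsa-miR-33a-3p, hsa-miR-33b-5p and hsa-miR-33b-3p, and 0 miRNAs were called (42 at an unadjusted p under 0.05). With 45 to 202 counts per library, counting alone gives a coefficient of variation of 7.04% to 14.9%, while that of hsa-miR-33a-5p between replicates was 22.4% in the overexpression and 33.1% in the control group.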
